A study of Mus musculus with 6 samples.

Results

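The 10 genes described here encode parts of the autophagy machinery that has been linked to the secretory granules of Paneth cells: Ulk1, Becn1, Atg7, Atg5, Atg12, Atg16l1, Atg4b, Map1lc3b, Sqstm1 and Lrrk2. They were listed by name, and all 10 were found among the 55414 genes of the count table. Counts were present for 9 of the 10, and these 9 also passed the filter on low counts, which left 9749 genes for testing. RNA-seq was performed on Paneth cells of wild-type mice (C57BL/6J in the study's methods), sorted by FACS (fluorescence-activated cell sorting) out of small intestine. Mice of the St_TNF group (3 libraries) were fed standard chow and those of the ZincDef_TNF group (3 libraries) zinc depleted chow, in both cases for 7 weeks. All mice of both groups received tumor necrosis factor (TNF) 3 hours before sampling, so the comparison addresses the effect of the diet in the presence of TNF and not the effect of TNF. No age was stated for these mice.

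Autophagy encloses cytoplasm, damaged organelles or bacteria in a double membrane, the autophagosome, that fuses with the lysosome. The ULK1 kinase starts the process, Beclin-1 brings the lipid kinase that marks the membrane, and a conjugation system built around ATG7, ATG5, ATG12 and ATG16L1 attaches LC3 to it. In Paneth cells, loss of ATG16L1, ATG5 or ATG7 is known to disturb the packaging and release of granules, and part of the lysozyme is secreted by a route that uses the autophagy machinery. Variants of ATG16L1 and of LRRK2 are associated with Crohn's disease.

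The labelled cell type was checked by its defining transcripts. Lyz1, Defa24, Mmp7, Itln1 and Ang4 together held between 40.6% and 54.2% of the counts of each library, out of 6139397 to 12772373 counts per library. In CPM (counts divided by library size, scaled by the TMM method), the scale used for the lists that follow, their sum ran from 235693 in St_TNF replicate 1 to 1172349 in zinc depleted replicate 3. These sums are not shares of the counts, which were 40.6% and 53.8% in these libraries. The TMM factors, by which library sizes were multiplied, were 1.73, 1.51 and 0.897 with standard chow and 1.46, 0.639 and 0.459 with zinc depletion. A lower factor gives a higher CPM for the same share. Of 8 to 10 markers per list, the summed level was 51.8 to 154 CPM for enterocytes, 19.8 to 79.2 CPM for enteroendocrine cells and 22.9 to 128 CPM for immune cells, where Lyz2 gave most of the signal and Cd3e and Trac were at 0. It was 34.2 to 558 CPM for tuft cells, with the highest value in St_TNF replicate 2. The stem cell list of 6 genes, led by Olfm4, reached 2267 CPM in St_TNF replicate 1 and 503 to 1396 CPM elsewhere. The goblet list, led by Spink4, lay between 5121 and 12825 CPM. Muc2, Clca1 and Spdef of this list were highest in zinc depleted replicate 1, with Muc2 at 3115 CPM there and 284 to 839 CPM elsewhere. Spink4, Tff3 and Agr2 were highest in zinc depleted replicate 3, and Fcgbp and Zg16 in St_TNF replicate 2. The proliferation list, led by Pcna, lay between 53.2 and 144 CPM. Of its 8 genes, Pcna had a log2 fold change above 0 and the other 7 were below 0 with zinc depletion. The groups did not overlap for 5 of them (Mki67, Top2a, Mcm2, Mcm5 and Ccnb1), all lower, against 6.58% of all tested genes, though none passed the threshold. All 5 tested stem cell markers and all 6 tested tuft cell markers were also below 0 with TMM, and the part of these lists in the results was not tested. In sorted bulk samples, fewer cells of a type and less RNA per cell cannot be told apart.

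The levels of the genes were very uneven. To compare them, CPM was divided by the length of the canonical transcript in kilobases. On this scale Sqstm1 stood at 133 CPM per kilobase over the 6 libraries, Map1lc3b at 50.7, Atg5 at 8.48, Becn1 at 6.50 and Atg7 at 5.48. Below them lay Atg4b at 3.32, Atg16l1 at 2.25, Atg12 at 1.45 and Ulk1 at 0.96, while Lrrk2 was at 0. Sqstm1 and Map1lc3b thus stood above 98.4% and 96.6% of all tested genes by this measure, and Ulk1 above 27.5%. Between neighbours in this order, the ranges over the 6 libraries were separate only for Map1lc3b above Atg5. Map1lc3b was above Atg5, Atg7 above Atg4b and Atg4b above Atg16l1 in 6 of 6 libraries. Sqstm1 was above Map1lc3b in 5 of 6, Becn1 above Atg7 in 5, Atg16l1 above Atg12 in 5, Atg5 above Becn1 in 4 and Atg12 above Ulk1 in 4.

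**Figure D1:**
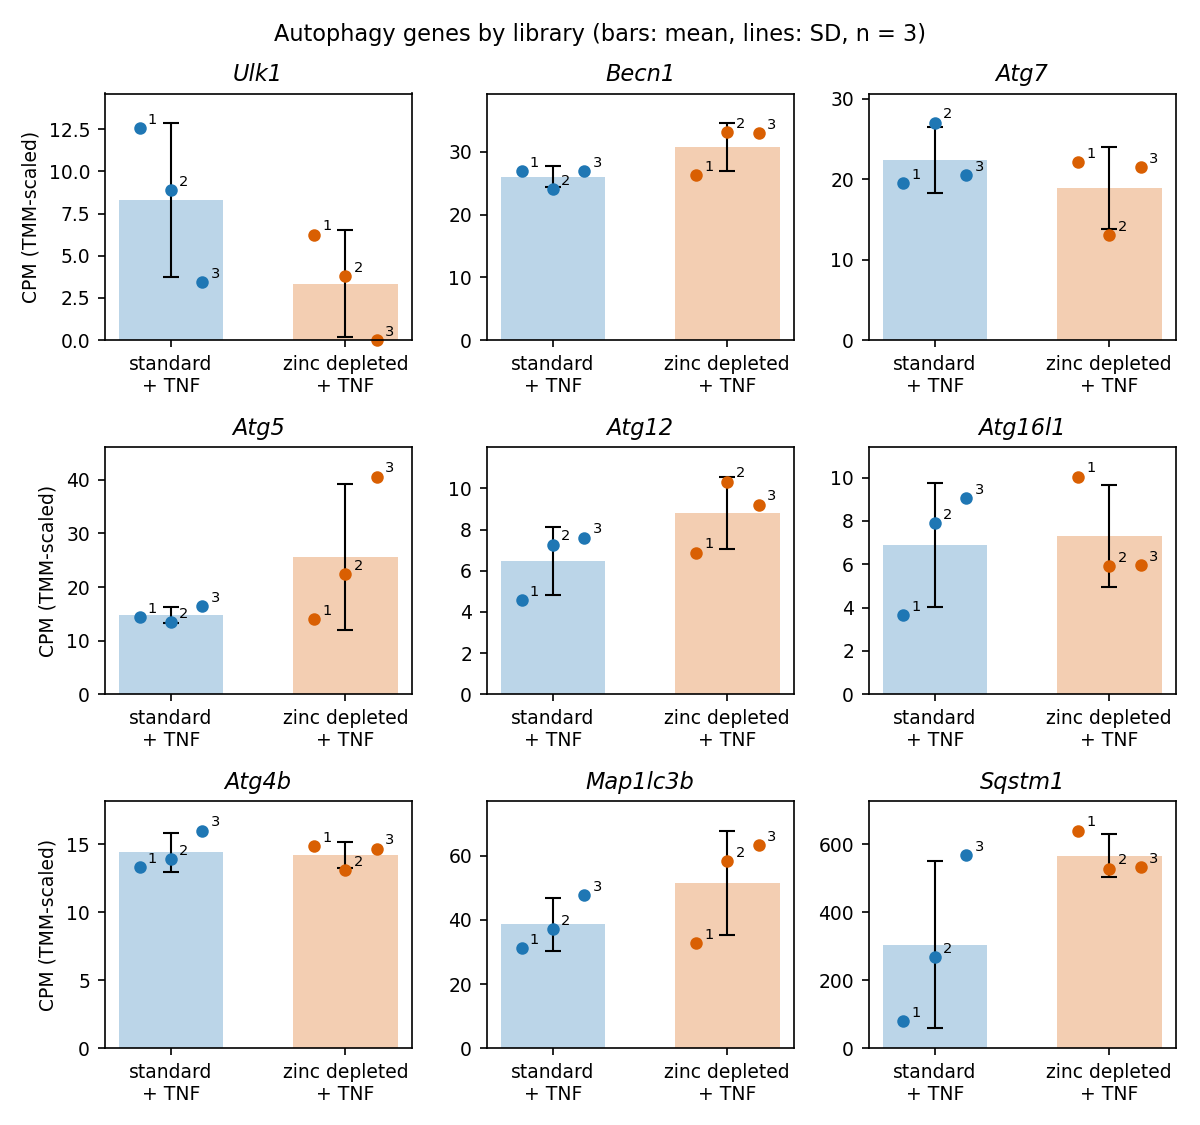
TMM-scaled CPM of the 9 genes with counts in each library, with standard chow in blue and zinc depleted chow in orange, both with TNF. Bars are means, lines are SD (n = 3), and numbers are replicates. The panels have separate axes that start at 0. The groups overlap in every panel, and Sqstm1 with standard chow runs from 80.5 to 567 CPM and Ulk1 with zinc depleted chow from 0 to 6.26 CPM.

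None of the 9 tested genes passed the threshold between the diets. Of all 9749 genes tested with the quasi-likelihood test of edgeR, 0% had an adjusted p under 0.05, and 6.62% (645 genes) had an unadjusted p under 0.05, of which none was among these 9 (4.03% lower and 2.58% higher over all tested genes). DESeq2 and limma-voom likewise called none of the 9, also at an unadjusted p under 0.05. With 1 library left out, the 645 genes became 143 (without St_TNF replicate 1) to 2418 (without zinc depleted replicate 1), and Atg5 without zinc depleted replicate 1 and Sqstm1 without St_TNF replicate 3 were then among them. The groups overlapped in TMM-scaled CPM for all 9 genes, whereas they did not overlap for 10.1% of all tested genes. With TMM, 6 of the 9 had a log2 fold change above 0, with a median of 0.24 against 0.00 over all tested genes. With total counts only, 1 of the 9 was above 0 and the median was -0.42, but that of all tested genes was then -0.67. Relative to the median of all tested genes, the median of the 9 was thus 0.24 higher with TMM and 0.25 higher with total counts. The sign differed between the scalings for Becn1, Atg5, Atg12, Atg16l1 and Map1lc3b, and values with TMM are given unless another scaling is named.

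**Figure D2:**
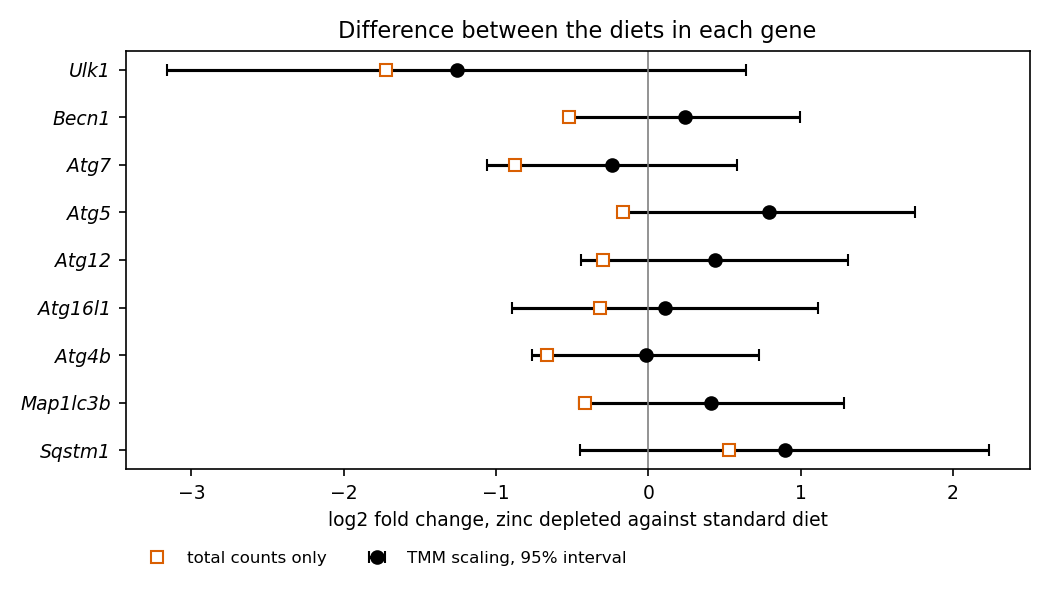
Log2 fold change of each gene, zinc depleted against standard chow, with TMM scaling (filled circles, with 95% intervals) and with total counts only (open squares). Every interval includes 0, and all but Sqstm1 are below 0 with total counts only.

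Sqstm1 encodes p62, the receptor that binds ubiquitin-tagged cargo and LC3 and is itself degraded by autophagy. Its locus is on the minus strand of chromosome 11 (GRCm39, 50089572 to 50107684), with 8 exons in its canonical transcript. It had 1018, 2466 and 5073 counts with standard chow and 9310, 2509 and 3119 counts with zinc depletion, or 80.5, 268 and 567 CPM against 641, 529 and 532 CPM. The standard chow libraries were spread 7.05-fold, and replicate 3 of that group lay inside the range of the zinc depleted libraries. The mean was 305 ± 246 CPM (SD, n = 3) with standard chow, against 567 ± 63.5 CPM (SD, n = 3) in the other group. The log2 fold change was 0.89 (SE 0.61, 95% interval -0.45 to 2.23), which did not pass the threshold (edgeR adjusted p 0.707). It rested on the standard chow libraries: it was 0.44 without replicate 1 of that group and 1.76 without replicate 3 (edgeR adjusted p 1.00 and 0.225). St_TNF replicate 1, the lowest in Sqstm1, was also the highest in the stem cell list, and the part of this in the result was not tested. By the spread of log2 CPM over the 6 libraries, Sqstm1 stood above 91.1% of all tested genes.

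Map1lc3b encodes LC3B, the small ubiquitin-like protein that is attached to the autophagosome membrane and bound by p62. The gene lies at 122317100 to 122325499 of chromosome 8 (GRCm39, plus strand). Its counts were 394, 342 and 426 with standard chow and 478, 277 and 371 with zinc depletion, or 31.2, 37.1 and 47.6 CPM against 32.9, 58.4 and 63.3 CPM. The highest 2 values belonged to zinc depleted replicates 2 and 3, while replicate 1 of that group lay within the standard chow range. The log2 fold change was 0.41 (standard error 0.40, 95% interval -0.46 to 1.28, adjusted p by edgeR 0.771), and -0.42 with total counts only. Stretches of 75 bases of its transcript were specific to Map1lc3b in 76.1% of cases, and the others were shared with the loci Gm12727, Gm6054 and Gm6055.

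Ulk1 encodes the kinase that starts autophagosome formation. Its locus is on the minus strand of chromosome 5 (GRCm39, 110931496 to 110957995), with 28 exons. It had 159, 82 and 31 counts with standard chow and 91, 18 and 0 counts with zinc depletion. The values were 12.6, 8.90 and 3.47 CPM with standard chow and 6.26, 3.80 and 0 CPM in the zinc depleted group, where 0 counts allow up to 0.512 CPM at the depth of zinc depleted replicate 3. The groups overlapped, since St_TNF replicate 3 lay below zinc depleted replicates 1 and 2. Its log2 fold change was -1.26 (standard error 0.87, 95% interval -3.16 to 0.64, adjusted p by edgeR 0.707), the lowest of the 9. It was -0.66 without zinc depleted replicate 3, -0.84 without St_TNF replicate 1 and -2.18 without zinc depleted replicate 1, with no adjusted p under 0.227 (edgeR). By its spread of log2 CPM over the 6 libraries Ulk1 stood above 99.8% of all tested genes.

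Becn1 encodes Beclin-1, the scaffold of the lipid kinase complex that nucleates the membrane. The gene lies at 101176769 to 101193122 of chromosome 11 (GRCm39, minus strand). It had 341, 222 and 241 counts with standard chow and 383, 157 and 193 with zinc depletion. These counts were 27.0, 24.1 and 27.0 CPM against 26.3, 33.1 and 32.9 CPM, and only zinc depleted replicate 1 fell within the range of the other group. Its log2 fold change was 0.24 (standard error 0.34, 95% interval -0.51 to 1.00, adjusted p by edgeR 0.835), and -0.52 with total counts only. Of its 75-base stretches, 54.3% were specific to it, since Cntd1 overlaps it on the opposite strand. Whether strand was used in counting was not stated, and Cntd1 itself had at most 4 counts in any library. Sqstm1 overlaps Mrnip and Mgat4b, also on the opposite strand, and 75.1% of its stretches were specific. Per library, Mrnip held 0 to 14 counts and Mgat4b 187 to 786. Shorter overlaps on the opposite strand were those of Atg12 with Ap3s1, Atg4b with Thap4 and Map1lc3b with Zcchc14. They covered 215, 166 and 68 exon bases. Ap3s1 held 66 to 145 counts per library, Thap4 36 to 117 and Zcchc14 12 to 70.

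The conjugation genes differed in how steady they were. Atg4b, which encodes the protease that trims LC3 before conjugation and releases it afterwards, had 168, 128 and 143 counts with standard chow and 216, 62 and 86 with zinc depletion. With TMM it was the steadiest of the 9 tested genes, at 13.3, 13.9 and 16.0 CPM against 14.9, 13.1 and 14.7 CPM. Only 0.195% of all tested genes had a smaller spread of log2 CPM on this scale. As CPM of total counts it was not steady, at 22.9, 20.8 and 14.3 against 21.6, 8.34 and 6.73. Its log2 fold change was -0.02 (standard error 0.34, 95% interval -0.76 to 0.73, adjusted p by edgeR 0.990), and -0.66 with total counts only. Changes from 0.590-fold to 1.66-fold thus lay within its interval.

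Atg5 encodes the protein that is joined to ATG12 to form the conjugate that attaches LC3. Its locus is on the plus strand of chromosome 10 (GRCm39, 44142076 to 44240308). It had 181, 124 and 147 counts with standard chow and 203, 106 and 238 with zinc depletion, or 14.3, 13.5 and 16.4 CPM against 13.97, 22.3 and 40.6 CPM. The standard chow libraries lay close together, and zinc depleted replicates 2 and 3 lay above them while replicate 1 did not. The log2 fold change of 0.79 (SE 0.43, 95% interval -0.16 to 1.75) did not pass the threshold (edgeR adjusted p 0.681). It was 0.33 without zinc depleted replicate 3 and -0.16 with total counts only. Without zinc depleted replicate 1 it was 1.11 (edgeR unadjusted p 0.00975, adjusted p 0.122). In that fit 2418 genes in all had an unadjusted p under 0.05 (edgeR), against 645 with every library.

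Atg12, whose product is the ubiquitin-like partner of ATG5, had 58, 67 and 68 counts with standard chow and 100, 49 and 54 with zinc depletion. Its levels were 4.59, 7.27 and 7.61 CPM against 6.88, 10.3 and 9.21 CPM, so the groups overlapped only through zinc depleted replicate 1. The log2 fold change was 0.44 (standard error 0.40, adjusted p by edgeR 0.757), and -0.30 with total counts only. Atg7, which encodes the activating enzyme of the conjugation system, had 247, 249 and 183 counts against 322, 62 and 126, or 19.5, 27.0 and 20.5 CPM against 22.2, 13.1 and 21.5 CPM. The gene lies at 114620044 to 114837576 of chromosome 6 (GRCm39, plus strand). Zinc depleted replicate 2 alone lay below the standard chow range. Its log2 fold change was -0.24 (standard error 0.37, adjusted p by edgeR 0.855).

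Atg16l1 encodes the protein that carries the ATG12-ATG5 conjugate to the membrane. Its locus is on the plus strand of chromosome 1 (GRCm39, 87683592 to 87720150), as is that of Atg4b (93679222 to 93718332). The counts of Atg16l1 were 46, 73 and 81 with standard chow and 146, 28 and 35 with zinc depletion, which gave 3.64, 7.92 and 9.06 CPM against 10.04, 5.90 and 5.97 CPM. The lowest value was that of St_TNF replicate 1 and the highest that of zinc depleted replicate 1. The means were 6.87 ± 2.86 CPM and 7.31 ± 2.37 CPM (SD, n = 3 each), with a log2 fold change of 0.11 (standard error 0.46, 95% interval -0.90 to 1.12, adjusted p by edgeR 0.950). The sign turned to -0.20 without St_TNF replicate 1, to -0.19 without zinc depleted replicate 1 and to -0.31 with total counts only.

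Lrrk2 encodes a large kinase that phosphorylates Rab proteins and takes part in the sorting of lysozyme into Paneth cell granules. The gene lies at 91557083 to 91700604 of chromosome 15 (GRCm39, plus strand), with 51 exons and a transcript of 8851 bases. No count was found for Lrrk2 in any of the 6 libraries, which held 53650322 counts in all. A count of 0 allows up to 3 counts, or 0.235 to 0.489 CPM of total counts depending on the library. All of its 75-base stretches were specific to it among annotated transcripts. Of the 21627 protein-coding genes in the table, 35.4% were without a count in all 6 libraries. Lrrk2 could not be compared between the diets.

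Short promoter stretches are shown for the conjugation genes Atg7 and Atg5. Promoters (250 bases before to 50 bases after the transcript start, RefSeq, GRCm38.p6) were listed for 7 of the 10 genes, all but Becn1, Atg12 and Atg16l1. Each of the 7 matched GRCm39 exactly at 1 place. Searched on both strands were the E-box core CACGTG (bound by TFEB, a regulator of autophagy genes), the cAMP response element TGACGTCA, the antioxidant response element core TGACNNNGC and a 10-base NF-kB site. They were present in 7.15%, 1.79%, 12.4% and 0.155% of all 32851 promoters listed. The E-box core was in the promoters of Atg7 and Atg5, the cAMP response element in that of Atg5 and the antioxidant core in that of Map1lc3b, 5 bases into the transcript. None of the 4 motifs was in the windows of Sqstm1, Ulk1, Atg4b or Lrrk2. The stretches of Atg7 (chr6:114647919-114647942, plus strand) and Atg5 (chr10:44144317-44144342, plus strand) are shown in GRCm39 with the motifs in capitals. They are shown because they place the E-box far from the RefSeq start in Atg7 and next to it in Atg5. Counted from the RefSeq start, the Atg7 stretch begins at position -138 and the Atg5 stretch at -18, and in Atg5 the cAMP response element spans that start. These starts are not the outer ends of the GENCODE loci. The Atg7 window spans 114647807 to 114648106 in a locus that begins at 114620044. The Atg5 window spans 44144085 to 44144384 in a locus that begins at 44142076. The windows of Sqstm1 and Atg4b also lie inside their loci, and other starts of these genes were not searched. These matches are letters in a window and no binding was measured.
Atg7: ggtggtCACGTGtgcagtaagtga
Atg5: ttgcCACGTGgtcttggTGACGTCAt

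To see whether the genes moved together across libraries, each was set against its own mean of log2 CPM over the 6 libraries. In St_TNF replicate 1, 1 of the 9 tested genes was above its mean, and the median deviation was -0.37. This gene was Ulk1. In St_TNF replicates 2 and 3 the number above was 3 and 7, with median deviations of -0.04 and 0.03. In zinc depleted replicates 1, 2 and 3 it was 5, 6 and 7, with medians of 0.06, 0.23 and 0.22. Over all tested genes, between 48.0% and 54.9% were above their mean in each library. St_TNF replicate 1 thus held the fewest genes above their mean. Ulk1 was at 1.81 there. In zinc depleted replicate 3, Ulk1 (-4.09, where its count was 0) and Atg16l1 (-0.17) were below their mean.

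With total counts only the picture was another. Then 7, 9 and 3 of the 9 were above their mean with standard chow and 9, 0 and 1 with zinc depletion. The bulk of all tested genes moved in the same way, with 89.5%, 87.5% and 35.6% above their mean with standard chow and 77.9%, 12.5% and 8.43% with zinc depletion. On this scale St_TNF replicates 1 and 2 and zinc depleted replicate 1 were on the high side for most genes. Zinc depleted replicates 2 and 3 were on the low side, with median deviations of -0.61 and -1.09 over all tested genes. St_TNF replicate 3 was also on the low side, but less so (-0.12). Sqstm1 did not follow this pattern: at -1.37 in St_TNF replicate 1 it was far below its mean where most genes were above.

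**Figure D3:**
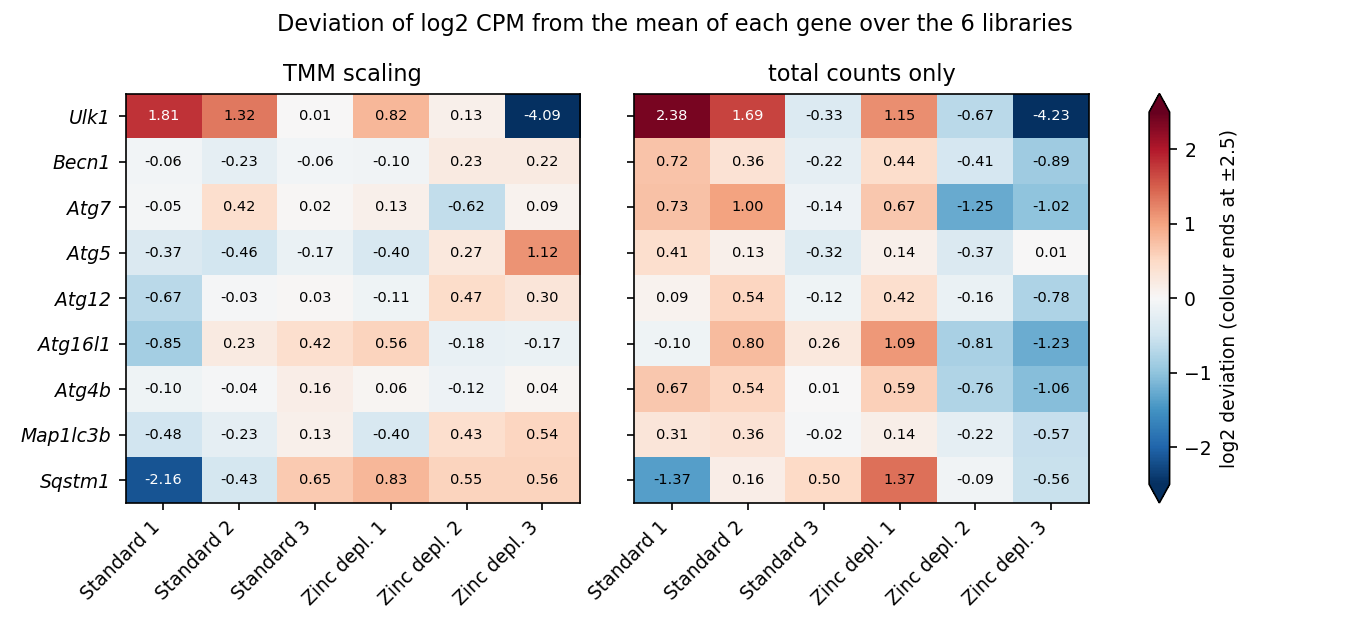
Deviation of log2 CPM from the mean of each gene over the 6 libraries, with TMM scaling (left) and total counts only (right). Colours run from blue (below the mean) to red (above it). Ulk1 in zinc depleted replicate 3 (-4.09) and Sqstm1 in St_TNF replicate 1 (-2.16) are the lowest cells with TMM, and with total counts most genes share the pattern of their library.

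Transcript length moved with the libraries too. With TMM, the median deviation of all tested genes with a transcript over 5000 bases was 0.25, 0.22 and -0.04 with standard chow, against 0.46, -0.16 and -0.50 with zinc depletion. That of genes under 1500 bases was -0.24, -0.23 and 0.06 against -0.66, 0.40 and 0.82. Map1lc3b, with a transcript of 889 bases, deviated by -0.48, -0.23 and 0.13 with standard chow and by -0.40, 0.43 and 0.54 with zinc depletion. Atg5, with 2380 bases, deviated by -0.37, -0.46 and -0.17 against -0.40, 0.27 and 1.12. Ulk1, with 6084 bases, was at its lowest in the library where long transcripts were lowest. Atg12, with 5282 bases, did not follow them, at 0.47 and 0.30 in zinc depleted replicates 2 and 3. The part of transcript length in these values was not tested.

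**Figure D4:**
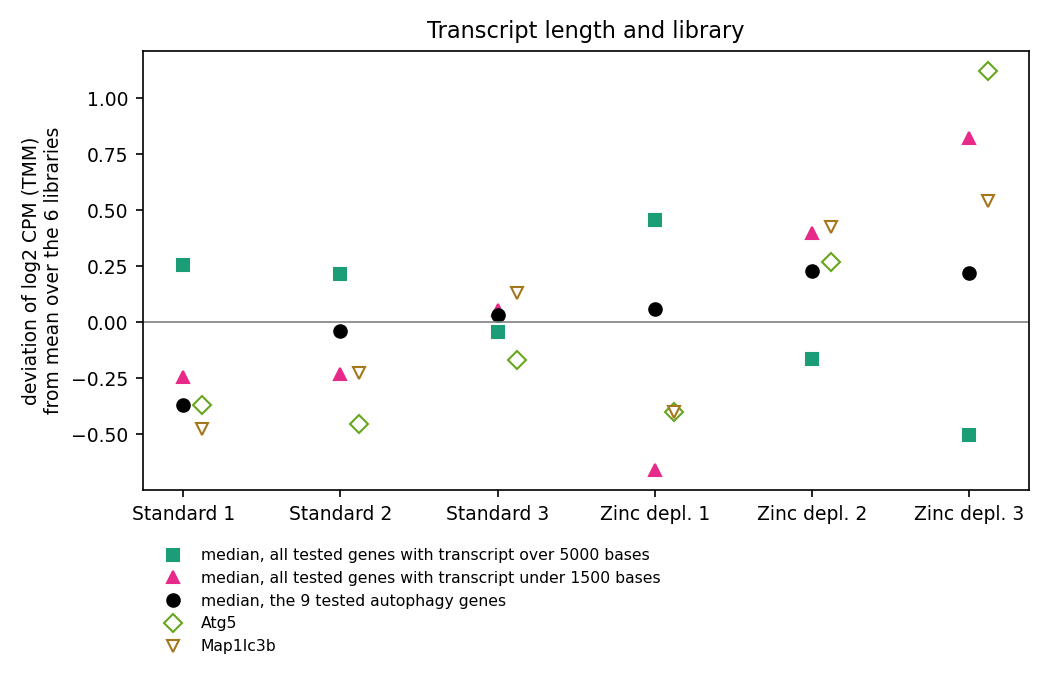
Deviation of log2 CPM (TMM) from the mean over the 6 libraries. Filled symbols are medians over all tested genes with long (over 5000 bases, squares) or short (under 1500 bases, triangles) transcripts and over the 9 tested autophagy genes (circles), and open symbols are Atg5 and Map1lc3b. Short transcripts are lowest in zinc depleted replicate 1 (-0.66), and they, Atg5 and Map1lc3b are all highest in zinc depleted replicate 3.

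The mean deviation of the 9 genes was -0.33, 0.06 and 0.13 with standard chow, against 0.16, 0.13 and -0.15 with zinc depletion. Among 2286 other genes with a mean log2 CPM of at least 4, the closest to this profile were Slc37a3, Galnt1, Gnb1, Pcbp1 and Tars1. Their root mean square difference from it was 0.08 to 0.11 on the log2 scale over the 6 libraries, against a median of 0.50. The profile rested on Ulk1 and its count of 0 in zinc depleted replicate 3. For the other 8 genes the mean deviation was -0.59, -0.10 and 0.15 with standard chow, against 0.07, 0.13 and 0.34 with zinc depletion. The closest genes were then Ptp4a2, Arf1, Cdc42se2, Reg4 and Dad1, and 0 of the 5 named before remained.

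The rest of the pathway was read from a list of 64 further genes by role, of which 60 were tested. None passed the threshold in either direction (edgeR), nor with DESeq2 or limma-voom. At an unadjusted p under 0.05 there were 2, 3 and 2 genes with edgeR, DESeq2 and limma-voom, against 645, 931 and 625 over all genes. The 645 genes of edgeR were 6.62% of all tested genes. With edgeR the count of the list was 0 with total counts only (593 over all genes). It was also 0 without St_TNF replicate 1, St_TNF replicate 2 or zinc depleted replicate 2 (143, 282 and 315 over all genes). Without St_TNF replicate 3 it was 11 and without zinc depleted replicate 1 it was 16, against 1553 and 2418 over all genes. The count of the list was thus highest where that over all genes was highest. Each of these fits was filtered anew, and shares of the genes tested in them were not computed. With TMM, 36 of the 60 were higher with zinc depletion and the median log2 fold change was 0.16. With total counts only, 12 of the 60 lay above 0, with a median of -0.49, against -0.67 for all tested genes. Of all 9749 tested genes, 4876 were above 0 with TMM and 1273 with total counts only. The groups did not overlap for 3 genes on the lower side and 3 on the higher side, where the shares over all tested genes were 6.58% and 3.51%.

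The lysosomal membrane gene Lamp2 and the membrane supply gene Vmp1 were the 2 genes with an unadjusted p under 0.05 in edgeR, both higher, against 2.58% of all tested genes. Lamp2, needed for fusion of autophagosomes with lysosomes, had 98.7, 94.8 and 134 CPM with standard chow and 112, 241 and 330 CPM in the zinc depleted group. Its log2 fold change was 1.06 (standard error 0.47, adjusted p by edgeR 0.681), and it had the highest level per length of its role, with 94.7 CPM per kilobase. Vmp1, which moves lipids into the growing membrane, had 32.7, 37.3 and 79.1 CPM against 50.5, 136 and 179 CPM, a log2 fold change of 1.29 (standard error 0.54, adjusted p by edgeR 0.681). In both genes zinc depleted replicate 1 lay within the standard chow range with TMM. With total counts only the groups did not overlap for Vmp1, which was higher with zinc depletion, as in 0.554% of all tested genes. The fusion and lysosome genes were above 0 in 9 of 14 cases with TMM and in 3 of 14 with total counts only, and the membrane supply genes in 6 of 10 and 1 of 10.

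The other conjugation genes were above 0 in 9 of 9 cases with TMM, with a median of 0.56, but in 2 of 9 with total counts only. Of the conjugation genes described above, Atg5, Atg12 and Atg16l1 were above 0 with TMM, and Atg7 (-0.24) and Atg4b (-0.02) below. Of all 9749 tested genes, 4876 and 1273 were above 0 on these 2 scales. Gabarap, an LC3-like protein, was the most abundant of the other conjugation genes at 72.0 CPM per kilobase. It had 75.9, 107 and 125 CPM with standard chow and 92.3, 145 and 218 CPM in the zinc depleted group. Its log2 fold change was 0.56 (standard error 0.44, adjusted p by edgeR 0.722). Atg4a, a relative of Atg4b, had 1.27, 2.71 and 3.36 CPM against 2.20, 5.90 and 8.19 CPM, and its log2 fold change was 1.13 (standard error 0.60, adjusted p by edgeR 0.681). The groups overlapped for both.

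Genes of the earlier steps were mostly below 0. In nucleation 1 of 7 genes was above 0 and in induction 1 of 4 (1 of 7 and 0 of 4 with total counts only), with median log2 fold changes of -0.07 and -0.23. By transcript length, the median over all tested genes was -0.14 over 5000 bases, -0.01 from 1500 to 5000 and 0.43 under 1500. That of the tested autophagy genes of all lists was 0.01, 0.27 and 0.45 (17, 48 and 4 genes). The part of length in the differences between roles was not tested. Atg101, a subunit of the ULK1 complex, had 7.44, 7.05 and 10.3 CPM with standard chow and 5.09, 6.32 and 4.61 CPM in the zinc depleted group, without overlap, and did not pass the threshold (log2 fold change -0.63, standard error 0.39, adjusted p by edgeR 0.687). Nrbf2, which binds the Beclin-1 complex, was the further nucleation gene above 0. It had 4.19, 4.56 and 8.95 CPM against 11.1, 13.1 and 5.12 CPM, with a log2 fold change of 0.73 (standard error 0.48, adjusted p by edgeR 0.697).

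Besides Sqstm1, the cargo receptors were evenly divided, with 4 of 8 above 0 (2 of 8 with total counts only). Nbr1, a receptor related to p62, had 60.0, 53.5 and 26.7 CPM with standard chow and 53.7, 33.1 and 28.2 CPM in the zinc depleted group, which is a log2 difference of -0.28 (standard error 0.43, adjusted p by edgeR 0.846). Calcoco1, a receptor for the endoplasmic reticulum and Golgi, had 7.04, 6.29 and 1.23 CPM against 2.61, 1.48 and 0.68 CPM, with a log2 fold change of -1.54 (standard error 0.70, adjusted p by edgeR 0.681). The highest library of both was St_TNF replicate 1, where Sqstm1 was lowest. On the other side lay Optn, a ubiquitin-binding receptor, with 3.01, 4.23 and 3.13 CPM against 6.60, 6.54 and 5.80 CPM, without overlap (log2 fold change 0.87, standard error 0.41, adjusted p by edgeR 0.681). Bnip3, a receptor on mitochondria, had the highest log2 fold change of the 8 receptors, 1.22 (standard error 0.73, adjusted p by edgeR 0.682), with overlapping groups.

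Among the genes tied to granule sorting and bacterial sensing, 6 of 8 were above 0 (3 of 8 with total counts only). Irgm1, an interferon-inducible GTPase whose loss alters Paneth cell granules, had 13.3, 19.6 and 40.4 CPM with standard chow and 60.3, 34.8 and 25.1 CPM in the zinc depleted group, which is a log2 difference of 0.72 (standard error 0.50, adjusted p by edgeR 0.707). Nod2, the sensor of bacterial cell wall fragments, had 1, 8 and 14 counts against 54, 3 and 13 counts, and its log2 fold change of 1.48 (standard error 0.90, adjusted p by edgeR 0.684) did not pass the threshold. In Sqstm1, Irgm1 and Nod2 alike, the lowest standard chow value was that of replicate 1 and the highest value of all was that of zinc depleted replicate 1. The goblet markers Muc2, Clca1 and Spdef were also highest in zinc depleted replicate 1. Spink4, Tff3 and Agr2 of the same list were highest in zinc depleted replicate 3, and Fcgbp and Zg16 in St_TNF replicate 2. The part of goblet cells in these values was not tested.

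**Figure D5:**
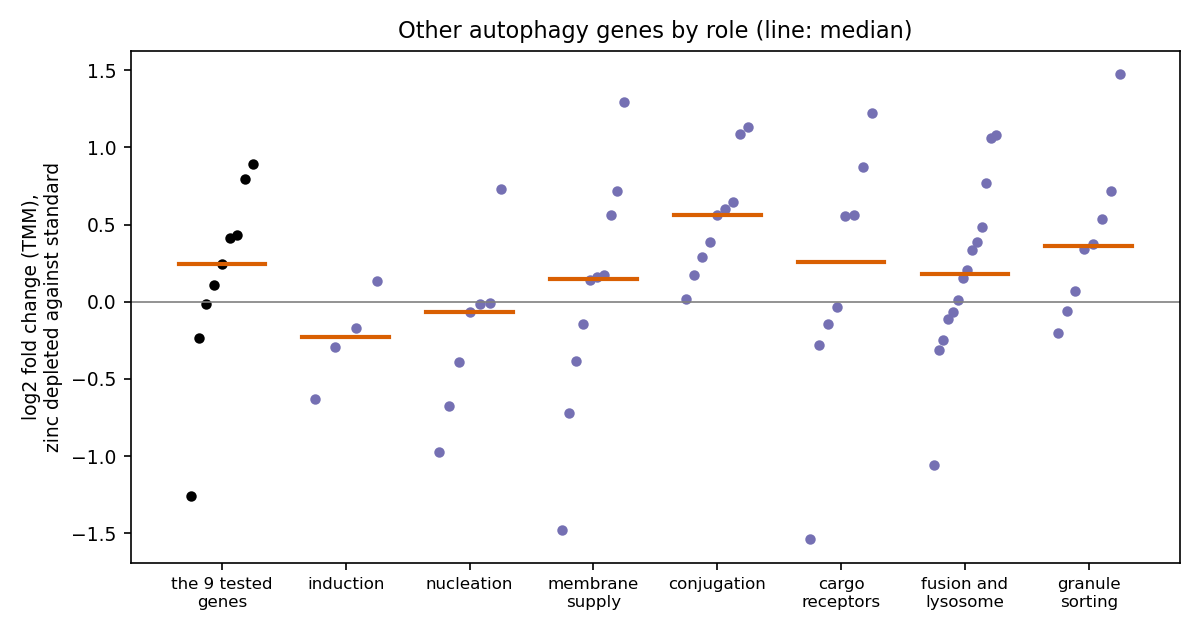
Log2 fold changes with TMM scaling, zinc depleted against standard chow, of the 9 tested autophagy genes (black) and of 60 further genes by role (purple), with medians as orange lines. The other conjugation genes all lie above 0 with this scaling, and no point passed the threshold.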

How the data were processed

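The authors deposited raw read counts per Ensembl gene for 6 single-end libraries. Per the labels, FastQC, Trimmomatic 0.39 and STAR 2.7.10a were used with the mm39 (GRCm39) genome. The counting program, its use of strand and its handling of reads with several matches were not stated. Floors from 3 counts cover counting error only, because reads are not independent molecules. The design text speaks of 4 biological replicates per group, and 3 per group were analysed here.

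Symbols, positions and canonical transcript lengths came from GENCODE M39, which held 54749 of the 55414 identifiers. All genes were fitted with edgeR 4.0.16 (R 4.3.3, TMM, filterByExpr, diet as the only term, two-sided quasi-likelihood F test, Benjamini-Hochberg adjustment over all 9749 tested genes, threshold 0.05). The standard error was the absolute log2 fold change divided by the square root of F. A prior count of 2 entered log2 CPM. The labels do not tie libraries to single mice, while the paper describes the samples of its series, this one included, as cells of individual mice. The p-values measure the spread between libraries, which may in part be technical. The procedure was tested on simulated data. Alternatives were DESeq2 1.42.0, limma-voom 3.58.1, RLE factors, total counts only, scaling without alpha-defensins, no filter, a mean CPM of at least 10, a replicate block and leaving out each library.

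The members and lists were chosen with earlier results of these data known. Named were all 10 members, per role the further gene with the highest level per length and that with the smallest p, the leading gene of each marker list and the 5 closest profiles. Lyz2, Cd3e, Trac, the proliferation genes other than Pcna and the goblet genes other than Spink4 were named after their values were seen. So were Optn, Bnip3, the genes closest without Ulk1 and the overlapping genes.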

Additional observations from a re-analysis of the deposited data

How the results depend on the processing

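The number of the 9 tested genes past the threshold was 0 in edgeR and under all 14 alternatives, and that of the 60 further autophagy genes was 0 as well. Over all genes the count went from 0 to 6 with DESeq2 and to 76 without the low-count filter, and it ranged from 0 to 28 with 1 library left out, where 28 was reached without St_TNF replicate 3. The median log2 fold change of the 9 genes was -0.42 with total counts only, and 0.22 to 0.41 with 1 library left out, the highest again without St_TNF replicate 3. With total counts only the sign also turned for Becn1 (-0.52), Atg5 (-0.16), Atg12 (-0.30), Atg16l1 (-0.31) and Map1lc3b (-0.42), where the median of all tested genes was -0.67. Atg4b was at 0.0028 with DESeq2 and 0.0053 with RLE factors. With 1 library left out, Atg4b ranged from -0.072 to 0.11, Atg16l1 from -0.20 to 0.41 and Atg7 from -0.35 to 0.0072. Sqstm1 (0.44 to 1.76) and Ulk1 (-2.18 to -0.66) kept their sign under every alternative that gave a value. Atg5 ranged from 0.33 to 1.11 with 1 library left out. Without the low-count filter Ulk1 had an unadjusted p of 0.0181 (edgeR adjusted p 0.467). Leaving Ulk1 out of the mean profile, an alternative chosen after seeing the data, left 0 of the 5 closest genes. With a mean CPM of at least 10, Ulk1, Atg12 and Atg16l1 were not tested.

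The replicate numbers are shared between the groups, but the deviations of same-numbered libraries from their group means correlated at 0.15, -0.06 and 0.25, so the numbers were not taken as pairs, and not every library correlated best with its own number. With the replicate block, 0 genes passed the threshold, 962 had an unadjusted p under 0.05, and among the 9 these were Ulk1 (log2 fold change -1.74) and Sqstm1 (1.26), with edgeR adjusted p of 0.358 and 0.503. Ulk1, Atg12 and Atg16l1, with at most 159, 100 and 146 counts in any library, had the lowest counts of the 9.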
